A study of Mus musculus with 13 samples.

Results

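The mammalian clock genes and clock outputs Arntl, Npas2, Clock, Per1, Per2, Per3, Nr1d1, Nr1d2, Dbp and Tef were read in RNA sequencing libraries of mouse cardiac muscle. They are 10 of 35793 gene symbols in the count table, and were picked by symbol with earlier results of these data known, library by library. Their levels and fold changes are therefore given as a description, with no p-value for a single gene. Counts of called genes among them describe the choice. The 13 libraries fall into 3 groups. MI+FG-3149 (n = 5) had myocardial infarction (MI) by permanent ligation of the left anterior descending coronary artery and the antibody FG-3149 against connective tissue growth factor (CTGF) at 10 mg/kg. MI+IgG (n = 5) had the same ligation and a control IgG antibody at 10 mg/kg. Sham (n = 3) had sham surgery and no antibody. All mice were C57BL/6JO1aHsd, 8 to 10 weeks old at the start, with a labelled time point of 1W+6W, whose meaning the labels do not spell out. The RNA came from left ventricle outside the ischaemic zone, so the infarct itself was not sampled. The labels used here give no hour at which a heart was taken, so sampling hour and group cannot be told apart, and its part in differences inside a group was not tested.

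The circadian clock is a feedback loop of transcription that runs with a period of about a day in nearly every cell, heart muscle cells included. ARNTL (also called BMAL1) pairs with CLOCK or its relative NPAS2 and drives genes through E-box sequences, among them the Per and Cry genes, whose proteins then shut the pair off. The same pair drives Nr1d1 and Nr1d2 (REV-ERB alpha and beta), which repress Arntl through ROR elements, and Dbp, Tef and Hlf, which act on D-box sequences. Transcripts of Arntl, Npas2 and Clock on one side, and of Dbp, Tef and the Per genes on the other, therefore peak at nearly opposite times of day in tissues with a running clock.

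RefSeq promoter windows, which span 250 bases before to 50 after a start site, were held for 9 of the 10 genes, with 14 windows in all, and Per2 was not among them. Both strands were searched for the E-box CACGTG, the D-boxes TTATGTAA and TTACGTAA, and the ROR element (AANT followed by AGGTCA), and no match overlapped another. The 5 windows with a match are shown because they place the 3 kinds of clock element on genes described here. Matches are in capitals, the build is GRCm38.p6 and each line reads along the gene's strand.
Per3, D-boxes, chr4:151044616-151044915, minus strand: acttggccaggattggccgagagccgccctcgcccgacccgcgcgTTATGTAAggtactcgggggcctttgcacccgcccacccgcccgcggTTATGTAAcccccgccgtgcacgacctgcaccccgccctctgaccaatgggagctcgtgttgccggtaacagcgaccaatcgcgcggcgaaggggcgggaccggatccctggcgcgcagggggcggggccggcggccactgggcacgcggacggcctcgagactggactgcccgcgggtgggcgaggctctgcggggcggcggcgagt
Arntl, ROR element, chr7:113207261-113207560, plus strand: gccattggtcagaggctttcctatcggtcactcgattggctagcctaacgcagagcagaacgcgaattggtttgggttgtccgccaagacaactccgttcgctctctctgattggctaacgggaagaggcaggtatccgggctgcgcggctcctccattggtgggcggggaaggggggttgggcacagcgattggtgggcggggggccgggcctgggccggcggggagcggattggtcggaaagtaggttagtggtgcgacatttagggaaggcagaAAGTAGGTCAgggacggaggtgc
Per1, E-box, chr11:69098699-69098998, plus strand: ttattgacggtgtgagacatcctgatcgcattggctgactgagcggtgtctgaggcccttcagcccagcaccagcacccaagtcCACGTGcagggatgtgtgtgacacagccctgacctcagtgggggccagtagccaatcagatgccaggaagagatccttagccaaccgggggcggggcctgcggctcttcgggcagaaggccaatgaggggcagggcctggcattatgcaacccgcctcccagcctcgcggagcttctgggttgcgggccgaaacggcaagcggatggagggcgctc
Tef upstream start, E-box, chr15:81802423-81802722, plus strand: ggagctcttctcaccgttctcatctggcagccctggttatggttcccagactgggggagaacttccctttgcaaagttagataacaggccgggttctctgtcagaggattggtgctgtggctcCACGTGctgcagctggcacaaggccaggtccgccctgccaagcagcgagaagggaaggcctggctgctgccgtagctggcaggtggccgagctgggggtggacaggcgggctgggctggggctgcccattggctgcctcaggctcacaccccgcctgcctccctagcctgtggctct
Tef downstream start, E-box, chr15:81811164-81811463, plus strand: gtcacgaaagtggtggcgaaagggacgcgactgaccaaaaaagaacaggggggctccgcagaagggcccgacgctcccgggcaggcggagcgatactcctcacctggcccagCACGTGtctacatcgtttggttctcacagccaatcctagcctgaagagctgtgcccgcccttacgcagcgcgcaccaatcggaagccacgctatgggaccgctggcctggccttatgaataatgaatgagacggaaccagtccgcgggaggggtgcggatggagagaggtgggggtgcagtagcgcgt

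The D-boxes of Per3 began 205 and 158 bases before its start, and the E-box of Per1 began 166 bases before its start. The ROR element of Arntl began 28 bases after the start site to which the window shown belongs, near the end of that window. Both start sites of Tef had an E-box, 127 and 138 bases before the start. No match was found in the windows of Npas2, Clock, Dbp, Nr1d1 and Nr1d2, or in the other windows of Arntl and Per1. Of 32851 windows of this length in the same table, 7.15% held the E-box, 1.06% held a D-box and 0.219% held the ROR element. These letters describe the windows only, and the files hold no binding data.

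Library totals were 10954922 to 12794823 estimated counts in MI+FG-3149, 13084735 to 17567238 in MI+IgG and 12025880 to 14999813 in Sham, so the antibody group was the shallowest. All 10 genes passed the filter on low counts. The fewest estimated counts per library among the 10 were those of Npas2 (23 to 130) and Arntl (32 to 471), and Tef had 1142 to 4921. Cardiomyocyte marker transcripts summed to 105900 to 114600 CPM (counts scaled to a common library size by TMM) in MI+FG-3149, 100900 to 110100 in MI+IgG and 113100 to 122300 in Sham, with none of the 14 markers at 0. Fibroblast markers summed to 4109 to 4725 CPM in MI+FG-3149, 4452 to 6493 in MI+IgG and 2690 to 2859 in Sham, with none of 12 at 0. Macrophage markers summed to 513 to 837 CPM in MI+FG-3149, 485 to 750.3 in MI+IgG and 362 to 372 in Sham, with none of 11 at 0. Endothelial markers summed to 1185 to 1292 CPM in MI+FG-3149, 1097 to 1452 in MI+IgG and 1384 to 1516 in Sham, with none of 10 at 0. Skeletal muscle markers summed to 3661 to 4923 CPM in MI+FG-3149, 3466 to 4068 in MI+IgG and 2639 to 2822 in Sham. Of the 5 of 10 that passed the filter 1 rose in each infarcted group, while 2 fell in MI+FG-3149 and 3 in MI+IgG. The median log2 fold change of these 5 was -0.685 in MI+FG-3149 and -0.949 in MI+IgG, negative although the sums were higher than in Sham. In whole tissue, fewer cells of a type and less RNA per cell cannot be told apart, and the part of these shifts in the clock values below was not tested. Ctgf, which encodes the antibody's target, averaged 248 ± 57.2 CPM in MI+FG-3149 (SD, n = 5), 324 ± 74.3 in MI+IgG (SD, n = 5) and 42.5 ± 4.58 in Sham (SD, n = 3). The libraries of MI+FG-3149 and MI+IgG overlapped for Ctgf, and the difference was not called (log2 fold change -0.387, edgeR adjusted p = 0.394). The ribosomal RNA precursor Rn45s took 0.199 to 2.86% of the counts in MI+FG-3149, 0.673 to 1.94% in MI+IgG and 0.276 to 0.334% in Sham, and its part in the clock values was not tested.

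Among the activators, Arntl (Entrez Gene 11865, chr7:113207465-113314126, plus strand; all gene positions are mm10) had 13.8, 15.0, 18.5, 2.98 and 2.77 CPM in MI+FG-3149 libraries 1 to 5, 15.8, 15.3, 4.82, 3.12 and 2.46 CPM in MI+IgG libraries 1 to 5, and 37.4, 31.9 and 31.7 CPM in Sham. Every infarcted library was below every Sham library, and within each infarcted group some libraries were far lower than the others: 4 and 5 in MI+FG-3149, and 3, 4 and 5 in MI+IgG. The log2 fold change was -1.66 (SE 0.66) for MI+FG-3149 over Sham and -2.02 (SE 0.65) for MI+IgG over Sham. Arntl is the activator without which the loop does not run.

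Npas2 (18143, chr1:39194272-39363240, plus strand), which can stand in for CLOCK as the partner of ARNTL, had 4.96, 5.19, 6.64, 2.51 and 1.87 CPM in MI+FG-3149, 5.45, 7.32, 3.56, 2.71 and 3.38 CPM in MI+IgG, and 9.70, 8.20 and 9.37 CPM in Sham. The infarcted libraries were again all below Sham, with log2 fold changes of -1.10 (SE 0.37) for MI+FG-3149 and -1.01 (SE 0.35) for MI+IgG. The low libraries were those low for Arntl. Clock (12753, chr5:76212177-76304548, minus strand), the usual partner, ranged from 40.4 to 69.7 CPM in MI+FG-3149, from 41.6 to 72.0 in MI+IgG and from 84.3 to 97.2 in Sham. Its log2 fold change was -0.61 in both infarcted groups (SE 0.21 each), the smallest of the activators, and its infarcted libraries did not overlap Sham.

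**Figure D1:**
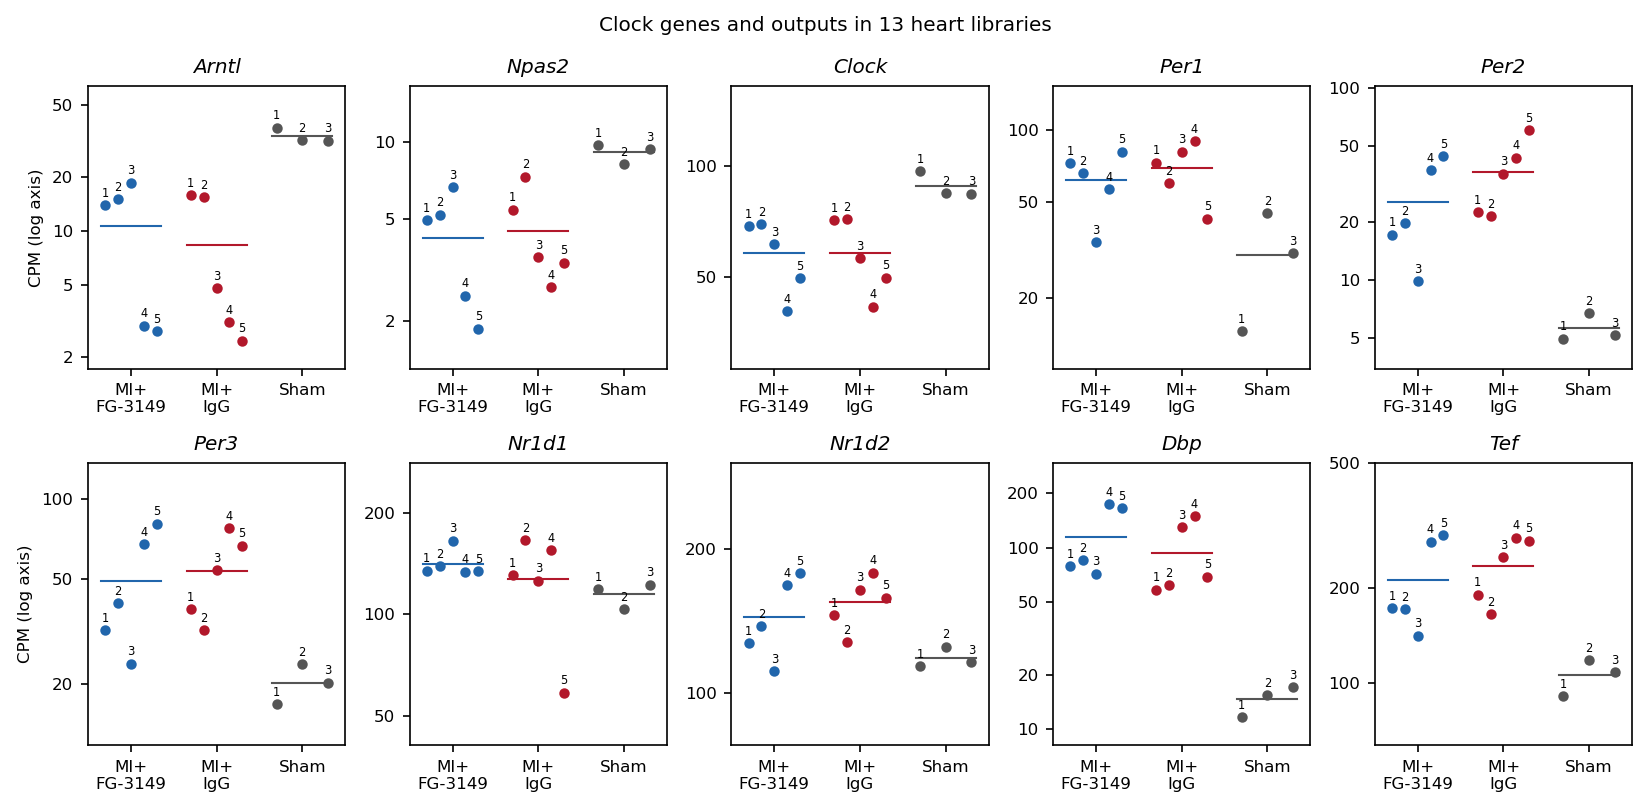
CPM (log axis) of the 10 clock genes and outputs in each library, with the replicate number beside each point and the group mean as a line. Arntl, Npas2 and Clock lie below all Sham libraries in both infarcted groups, and Per2, Per3, Dbp and Tef lie above them.

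Among the inhibitors of the loop, Per2 (18627, chr1:91415982-91459328, minus strand) had 17.2, 19.7, 9.83, 37.2 and 44.2 CPM in MI+FG-3149, 22.6, 21.5, 35.8, 43.3 and 60.3 CPM in MI+IgG, and 4.93, 6.71 and 5.14 CPM in Sham. All 10 infarcted libraries were above Sham. The log2 fold change was 2.18 (SE 0.60) for MI+FG-3149 and 2.70 (SE 0.59) for MI+IgG, and it was 1.33 and 1.83 on the log2(RPKM + 1) scale, where the added 1 is large beside a Sham mean of 0.955 RPKM (reads scaled by transcript length and library size).

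Per3 (18628, chr4:151003655-151044622, minus strand), the Period gene with the smallest part in keeping the rhythm, had 32.1, 40.4, 23.9, 67.5 and 80.9 CPM in MI+FG-3149, 38.4, 31.9, 53.8, 77.7 and 66.7 CPM in MI+IgG, and 16.9, 23.8 and 20.3 CPM in Sham. MI+FG-3149 library 3 was next to the highest Sham library, and the others were clear of Sham. The log2 fold change was 1.27 (SE 0.46) for MI+FG-3149 and 1.40 (SE 0.45) for MI+IgG.

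Per1 (18626, chr11:69098956-69109957, plus strand), which also answers quickly to hormones and other signals outside the loop, had a higher mean than Sham in both infarcted groups, as Per2 and Per3 did. Its order of libraries inside the infarcted groups was not theirs. It had 72.7, 66.1, 34.2, 56.6 and 81.1 CPM in MI+FG-3149, 73.0, 59.9, 81.1, 89.4 and 42.7 CPM in MI+IgG, and 14.6, 44.9 and 30.7 CPM in Sham. The groups overlapped through MI+FG-3149 library 3, MI+IgG library 5 and Sham library 2. Its log2 fold change was 1.04 (SE 0.39) for MI+FG-3149 and 1.20 (SE 0.39) for MI+IgG, and Sham itself spanned a 3.09-fold range.

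The REV-ERB repressors differed least between groups. Nr1d1 (217166, chr11:98767935-98775242, minus strand) had 134, 139, 165, 134 and 134 CPM in MI+FG-3149, 131, 166, 126, 155 and 58.5 CPM in MI+IgG, and 119, 104 and 122 CPM in Sham. MI+IgG library 5 was the lowest of all 13, and the MI+FG-3149 libraries were all above Sham by a small step (log2 fold change 0.30, SE 0.26). The log2 fold change for MI+IgG was 0.15 (SE 0.26), and 0.33 without MI+IgG library 5. Nr1d2 (353187, chr14:18204056-18239106, minus strand) ranged from 111 to 178 CPM in MI+FG-3149, from 127 to 178 in MI+IgG and from 114 to 125 in Sham. Its log2 fold change was 0.29 (SE 0.15) for MI+FG-3149, whose libraries overlapped Sham, and 0.39 (SE 0.15) for MI+IgG, whose libraries did not.

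Of the outputs, Dbp (13170, chr7:45705247-45710203, plus strand), which encodes a D-box binding activator, had 79.2, 85.2, 71.8, 173 and 165 CPM in MI+FG-3149, 58.7, 62.2, 129, 149 and 69.1 CPM in MI+IgG, and 11.7, 15.4 and 17.1 CPM in Sham. The lowest infarcted library was above the highest Sham library by a factor of over 3, the widest gap of the 10 genes. The log2 fold change was 2.96 (SE 0.51) for MI+FG-3149 and 2.68 (SE 0.51) for MI+IgG. Tef (21685, chr15:81802673-81826863, plus strand), of the same family, had 173, 172, 141, 281 and 295 CPM in MI+FG-3149, 191, 166, 251, 289.9 and 283 CPM in MI+IgG, and 90.8, 118 and 108 CPM in Sham. Its log2 fold change was 1.01 (SE 0.29) for MI+FG-3149 and 1.16 (SE 0.29) for MI+IgG, with no overlap with Sham in either. On log2(RPKM + 1) of NM_153484 alone, the Tef transcript most abundant over all 13 libraries, the MI+FG-3149 value was 0.42. By the deposited shares NM_153484 held 42.4 to 52.2% of Tef in MI+FG-3149.

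**Figure D2:**
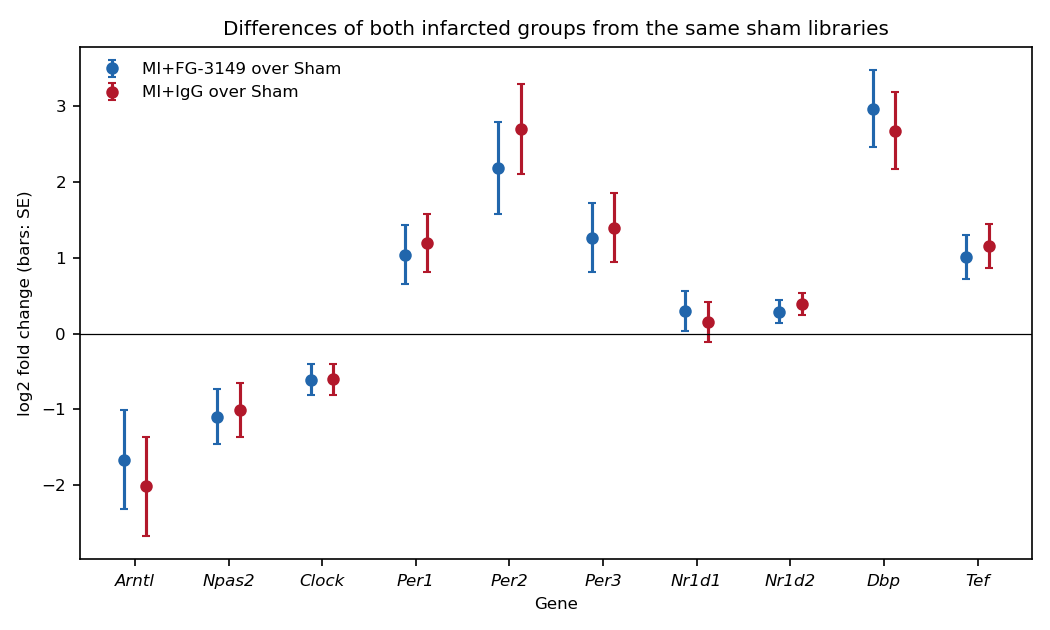
Log2 fold change of each gene over Sham for MI+FG-3149 and MI+IgG, with bars for the standard error. Both groups are set against the same 3 Sham libraries, and Dbp (2.96 and 2.68) and Per2 (2.18 and 2.70) stand opposite Arntl (-1.66 and -2.02).

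At a Benjamini-Hochberg adjusted p under 0.05 in edgeR's quasi-likelihood test over all 13434 genes tested, 3 of the 10 genes were called higher and 2 lower in MI+FG-3149 against Sham, where 29.5% of all genes were called (15.6% higher and 13.9% lower). In MI+IgG against Sham 5 were called higher and 3 lower, where 33.7% of all genes were called (17.8% higher and 15.9% lower). These contrasts were in view when the genes were chosen, so the counts describe the choice. They also rest on few libraries: leaving out 1 library at a time gave 1 to 6 called genes in MI+FG-3149 and 2 to 9 in MI+IgG. Over all genes, the same refits called 2641 to 4088 in MI+FG-3149 and 3329 to 4808 in MI+IgG. Without Sham library 1, 2 or 3 the count was 1, 2 and 1 in MI+FG-3149 and 2, 4 and 3 in MI+IgG, and it was 3 without MI+FG-3149 library 4 or 5, 3 without MI+IgG library 3 or 4 and 5 without MI+IgG library 5. In MI+FG-3149, 5 of the 10 genes were above and 3 below all Sham libraries, where 32.2% of all genes had no overlap (16.6% above and 15.6% below). In MI+IgG, 5 were above and 3 below, where 35.8% of all genes had no overlap (18.2% above and 17.7% below).

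Between the antibody groups, no gene of the 10 separated MI+FG-3149 from MI+IgG. The log2 fold changes of MI+FG-3149 over MI+IgG ran from -0.51 (SE 0.41) for Per2 to 0.35 (SE 0.65) for Arntl. They were 0.29 (SE 0.36) for Dbp, -0.15 (SE 0.24) for Tef and 0.00 (SE 0.19) for Clock. On log2(RPKM + 1) of the Tef transcript NM_153484 alone, the value was -0.82. The share of Tef given to that transcript was also lower in MI+FG-3149, as given below. The standard errors of Arntl and Per2 are wide, and missing the threshold does not show that the groups are alike. Of the 10 genes 0 were called by edgeR, 0 had an unadjusted p under 0.05, and 0 were called by DESeq2 or by limma voom. Of all genes, 1.07% were called by edgeR (0.916% higher and 0.156% lower). The 10 genes were chosen with their values in these libraries known, so these counts describe the choice here too. The libraries of the groups overlapped for all 10, where 3.14% of all genes had no overlap (1.9% higher and 1.24% lower).

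Per length, in RPKM, the order of levels in Sham began with Nr1d1 (43.7 ± 4.27, SD, n = 3), followed by Nr1d2 (25.4 ± 0.969) and Tef (25.2 ± 3.07), whose libraries overlapped. Clock (11.8 ± 1.09) and Arntl (11.6 ± 1.24) came next and overlapped, then Dbp (8.67 ± 1.60), Per1 (6.43 ± 3.18) and Per3 (3.40 ± 0.54), each overlapping its neighbour. Npas2 (2.17 ± 0.214) and Per2 (0.955 ± 0.153) were lowest and did not overlap. In MI+FG-3149 the top 3 were Dbp (67.5 ± 28.8, SD, n = 5), Nr1d1 (53.2 ± 4.63) and Tef (50.03 ± 16.2), and in MI+IgG they were Tef (57.1 ± 13.5), Dbp (56.5 ± 26.1) and Nr1d1 (49.0 ± 16.5), with overlapping libraries in each group. Arntl (3.63 ± 2.48 in MI+FG-3149 and 2.91 ± 2.35 in MI+IgG) and Npas2 (1.00 ± 0.469 and 1.08 ± 0.457) were the lowest of the 10 in both infarcted groups. Dbp thus took place 1 of 10 in MI+FG-3149, 2 in MI+IgG and 6 in Sham, while Arntl took place 9 in both infarcted groups and 5 in Sham.

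The ratio of Dbp to Arntl in RPKM sets an output against the activator of opposite phase within each library. It was 9.87, 9.80, 6.71, 100.2 and 103 in MI+FG-3149, 6.32, 7.01, 46.5, 82.6 and 48.6 in MI+IgG, and 0.536, 0.817 and 0.925 in Sham. Every Sham library was below 1, MI+FG-3149 libraries 1 to 3 and MI+IgG libraries 1 and 2 lay between 6.32 and 9.87, and the remaining 5 infarcted libraries lay between 46.5 and 103. Both infarcted groups thus held libraries of the lower and of the higher range.

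**Figure D3:**
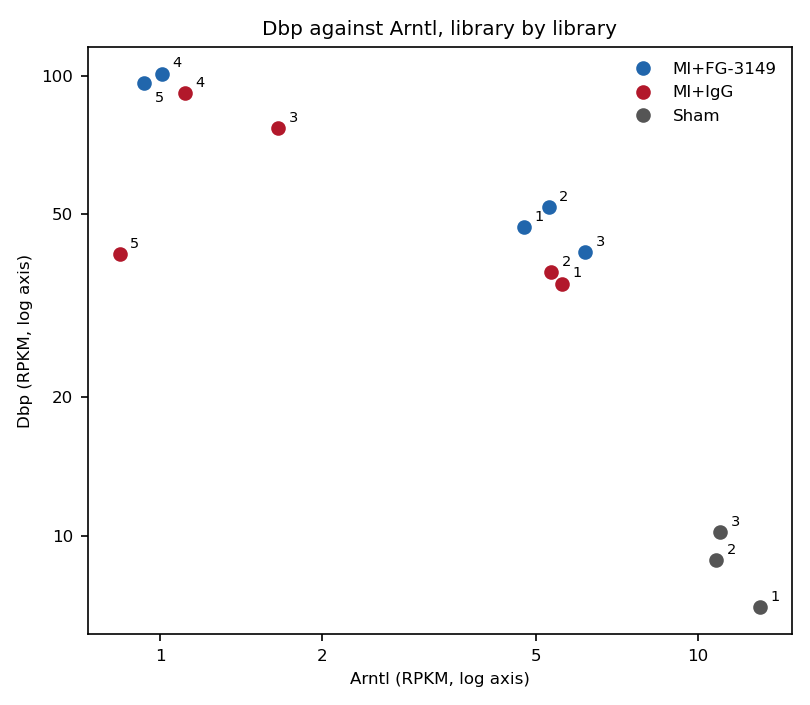
Dbp against Arntl in RPKM (both axes log) in the 13 libraries, with replicate numbers. The Sham libraries sit at the lower right (Arntl 10.8 to 13.0), 5 infarcted libraries in the middle and 5 at the left with Arntl of 0.842 to 1.66.

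This spread inside the groups was itself large. The SD of log2 CPM of Arntl was 1.32 in MI+FG-3149 and 1.24 in MI+IgG, above 99.8% of the genes tested in each, against 0.14 in Sham, which is above 61.0%. Per2 (0.87 and 0.63) and Dbp (0.61 and 0.63) were also among the widest in MI+FG-3149 and MI+IgG, against a median over all genes of 0.14 and 0.13. Nr1d1 was wide in MI+IgG (0.60) and ordinary in MI+FG-3149 (0.13). In all, 7 of the 10 genes were above the 90th percentile of spread in MI+FG-3149, 7 in MI+IgG and 1 in Sham, where it was Per1 (0.82).

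The 10 infarcted libraries took nearly one order for most of these genes. MI+FG-3149 libraries 4 and 5 and MI+IgG libraries 3, 4 and 5 were the lowest 5 for Arntl, and were also the lowest 5 for Npas2 and Clock. They were the highest 5 for Per2, Per3, Nr1d2 and Tef, and held 4 of the highest 5 places for Dbp. The exception for Dbp was MI+IgG library 5, which also had the lowest Nr1d1 and the highest Per2. Nr1d1 had 4 of these libraries among its lowest 5 and 1 among its highest 5, but by small steps. MI+FG-3149 libraries 4 and 5 (133.8 and 133.9 CPM) were next to library 1 (134.5 CPM), and only MI+IgG library 5 (58.5 CPM) was far lower. Per1 was split, with 2 among its lowest 5 and 3 among its highest 5. Centred on the group means over 13 libraries, the correlation with Arntl was 0.95 for Npas2, 0.90 for Clock, -0.94 for Per2, -0.93 for Per3, -0.96 for Tef, -0.88 for Nr1d2, -0.79 for Dbp, 0.48 for Nr1d1 and -0.17 for Per1. The libraries are the same for every pair, so these values describe 1 shared order and not separate relations.

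Likeness by the same measure was ranked over 11893 other genes with enough reads, with the 10 clock genes left out. Those most like Arntl were Spon2 and Gramd4 (Pearson 0.97 each), Dpy19l3 and Leo1 (0.95 each), Gm10653 (0.95) and Hbb-b1 (0.94). Spon2, which encodes a secreted matrix protein, had 5.39, 6.72, 9.28, 1.95 and 0.895 CPM in MI+FG-3149, 7.26, 9.46, 2.58, 1.53 and 0.691 CPM in MI+IgG, and 14.9, 16.7 and 12.4 CPM in Sham, an order close to that of Arntl. The most opposed were Lonrf1 (-0.97), Zbtb7a (-0.96), Mid1ip1 (-0.95), Zbtb16 (-0.94), Tspan4 (-0.94) and Ephx1 (-0.94). Zbtb16, a zinc finger gene induced by glucocorticoids, had 24.6, 31.9, 20.7, 56.4 and 76.7 CPM in MI+FG-3149, 21.4, 22.4, 41.1, 49.9 and 88.3 CPM in MI+IgG, and 24.9, 22.6 and 18.8 CPM in Sham. Its lower infarcted libraries were close to Sham, unlike those of Per2.

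Most like Dbp were Bmp4 (0.95), 3425401B19Rik and Gm129 (0.92 and 0.91), Nln (0.89), Pik3ip1 (0.88) and Klhl38 (0.87). Gm129, an older symbol of Ciart, encodes a repressor of the ARNTL and CLOCK pair. The most opposed to Dbp were Pvrl1 (-0.93), Pigl (-0.91), Serpinb9 (-0.90), Gm10778 and Srsf3 (-0.89 each) and Stam (-0.88).

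Hbb-b1 encodes a beta globin of red blood cells, and a list of 5 red blood cell transcripts was added after this was seen. Their sum was 1034, 1343, 1276, 442 and 469.8 CPM in MI+FG-3149, 964, 1438, 318, 320.4 and 365 CPM in MI+IgG, and 828, 545 and 524 CPM in Sham, and none of the 5 was at 0. The same 5 infarcted libraries were lowest for this sum as for Arntl, while Sham, highest for Arntl, lay between them and the rest. Of the 5 transcripts 0 were called by edgeR in any of the 3 contrasts, and 0 had an unadjusted p under 0.05. The part of blood content in the clock values was not tested.

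Other genes of the clock loops were counted from a list of 19, of which 18 passed the filter. In MI+FG-3149 against Sham 6 rose, 3 fell and 9 did not pass, and in MI+IgG against Sham 5 rose, 2 fell and 11 did not pass, where 29.5% and 33.7% of all genes were called. The list's median log2 fold change was 0.04 and 0.03, against -0.001 over all genes in both. The 9 calls in MI+FG-3149 became 5 without Sham library 1 and 5 without Sham library 2. Bhlhe40 (DEC1), a repressor that competes at E-boxes, rose 1.85-fold in MI+FG-3149 (log2 0.89 ± 0.18 SE, edgeR adjusted p = 0.00312) and 1.93-fold in MI+IgG (log2 0.95 ± 0.18 SE, adjusted p = 0.0016), with all 10 infarcted libraries at 80.8 to 130 CPM above the 46.6 to 67.7 CPM of Sham. Nfil3 (E4BP4), which represses at the D-boxes where DBP and TEF activate, fell by 0.87 on the log2 scale in MI+FG-3149 (SE 0.18, edgeR adjusted p = 0.00229) and by 0.72 in MI+IgG (SE 0.18, adjusted p = 0.00503). Its MI+IgG libraries 1 to 4 and all MI+FG-3149 libraries were at 8.29 to 11.1 CPM, MI+IgG library 5 was at 16.3 CPM, and Sham was at 15.5 to 19.6 CPM.

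Csnk1d, a kinase that marks PER proteins for decay, rose by a small step in MI+FG-3149 (log2 0.21 ± 0.05 SE, edgeR adjusted p = 0.00545) and in MI+IgG (log2 0.25 ± 0.05 SE, adjusted p = 0.000985). Fbxl21, an F-box gene that acts on CRY proteins, rose in both (edgeR adjusted p = 0.00314 in MI+FG-3149 and 0.00712 in MI+IgG) at very low levels, 0.364 to 1.38 CPM in MI+FG-3149, 0.507 to 0.803 in MI+IgG and 0.159 to 0.203 in Sham. Timeless, which also acts in DNA replication, rose in MI+FG-3149 (log2 0.31 ± 0.11 SE, edgeR adjusted p = 0.0366) and in MI+IgG (log2 0.52 ± 0.11 SE, adjusted p = 0.000921), and on the log2(RPKM + 1) scale both calls ended (adjusted p = 0.784 for MI+FG-3149 and 0.262 for MI+IgG). The MI+FG-3149 call of Timeless also ended without Sham library 1 or 2 (adjusted p = 0.163 and 0.172) and without MI+FG-3149 library 2, 4 or 5 (adjusted p = 0.0583, 0.0811 and 0.0543). Gsk3b, a kinase that acts on clock proteins, named after its values were seen, fell by 0.22 on the log2 scale in MI+FG-3149 and by 0.20 in MI+IgG (edgeR adjusted p = 0.0121 and 0.0173), and both calls ended without Sham library 1 (adjusted p = 0.11 and 0.151).

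Gm129 had 9.83, 5.73, 3.91, 17.96 and 16.8 CPM in MI+FG-3149, 8.06, 6.87, 16.4, 20.4 and 7.22 CPM in MI+IgG, and 2.23, 2.71 and 2.49 CPM in Sham. All infarcted libraries were above Sham, and the fold change was 4.34 (log2 2.12 ± 0.67 SE, edgeR adjusted p = 0.0371) in MI+FG-3149 and 4.78 (log2 2.26 ± 0.66 SE, adjusted p = 0.0227) in MI+IgG. The call was lost without any 1 Sham library (adjusted p = 0.11, 0.098 and 0.0934 in MI+FG-3149 and 0.0778, 0.0693 and 0.0666 in MI+IgG) and, in MI+FG-3149, without its library 1, 4 or 5 (adjusted p = 0.0527, 0.0673 and 0.0695). Under limma voom the adjusted p was 0.144 in MI+FG-3149 and 0.085 in MI+IgG.

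The cryptochromes, and Rora, a ROR activator that opposes the REV-ERBs at Arntl, had smaller fold changes. Cry1, a repressor that peaks later than the Per genes, had 8.29, 9.09, 8.73, 15.4 and 17.1 CPM in MI+FG-3149, 10.4, 7.77, 11.8, 12.7 and 25.4 CPM in MI+IgG, and 14.2, 14.1 and 10.4 CPM in Sham, with log2 fold changes of -0.15 (SE 0.39, edgeR adjusted p = 0.811) and 0.05 (SE 0.38, adjusted p = 0.932). Its group means hid an order inside the infarcted groups that matched that of Per2, with the same 5 libraries highest. Cry2 had a log2 fold change of 0.41 (SE 0.18, edgeR adjusted p = 0.107) in MI+FG-3149 and 0.43 (SE 0.18, adjusted p = 0.0766) in MI+IgG, and the same 5 libraries were highest. Rora rose in MI+FG-3149 (log2 0.43 ± 0.14 SE, edgeR adjusted p = 0.0277), a call that ended without Sham library 2 or 3 (adjusted p = 0.117 and 0.0868) and without MI+FG-3149 library 4 or 5 (adjusted p = 0.0533 and 0.0647), and its log2 fold change was 0.34 (SE 0.14, adjusted p = 0.0678) in MI+IgG. Bhlhe41 was listed at 0 in all 13 libraries, as was a gene of the output list below. The counting tool is not given, so a 0 here does not show that the RNA is absent.

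Of 25 further genes known to cycle downstream of the clock in heart or other tissues, 24 passed the filter. In MI+FG-3149 against Sham 4 rose, 1 fell and 19 did not pass, and in MI+IgG against Sham 5 rose, 3 fell and 16 did not pass, with median log2 fold changes of 0.03 and 0.09. Over all genes 29.5% and 33.7% were called, so the share of outputs called was no higher than that of all genes in either. The 5 calls in MI+FG-3149 became 3 without Sham library 1 or 3 or without MI+FG-3149 library 1, and the 8 calls in MI+IgG became 4 without Sham library 1 or 3 and 5 without MI+IgG library 4. Tspan4, a tetraspanin, rose 1.99-fold in MI+FG-3149 (log2 0.99 ± 0.23 SE, edgeR adjusted p = 0.00673) and 2.40-fold in MI+IgG (log2 1.26 ± 0.22 SE, adjusted p = 0.00112). Tcap, the titin cap of the Z-disc, rose 1.78-fold (log2 0.83 ± 0.17 SE, edgeR adjusted p = 0.00426) and 1.79-fold (log2 0.84 ± 0.17 SE, adjusted p = 0.00317). Usp2, a ubiquitin protease, rose 1.52-fold in both (log2 0.60 ± 0.19 SE each, edgeR adjusted p = 0.0361 and 0.0313). The Usp2 call ended in MI+FG-3149 without Sham library 1 or 3 (adjusted p = 0.131 and 0.114) or MI+FG-3149 library 1, 4 or 5 (0.0533, 0.0681 and 0.063), and in MI+IgG without Sham library 1 or 3 (0.118 and 0.106) or MI+IgG library 3, 4 or 5 (0.0616, 0.061 and 0.0634).

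Leo1, a subunit of the PAF1 complex that travels with RNA polymerase, was the member of this list most like Arntl. It had 21.1, 19.3, 23.4, 14.8 and 16.0 CPM in MI+FG-3149, 20.3, 19.99, 14.7, 13.7 and 11.3 CPM in MI+IgG, and 25.5, 24.5 and 25.0 CPM in Sham. It fell by 0.64 on the log2 scale in MI+IgG (SE 0.18, edgeR adjusted p = 0.0119), and its log2 fold change was -0.40 (SE 0.18, adjusted p = 0.105) in MI+FG-3149. Mtss1 fell by 0.41 on the log2 scale in MI+IgG (SE 0.09, edgeR adjusted p = 0.00287), a call that ended on log2(RPKM + 1) (adjusted p = 0.507). Klf9, an output that also answers glucocorticoids, rose in MI+FG-3149 (log2 0.34 ± 0.09 SE, edgeR adjusted p = 0.00673) and by 0.26 in MI+IgG (SE 0.09, adjusted p = 0.0272), where the call ended without Sham library 1 or 3 or MI+IgG library 3 (adjusted p = 0.112, 0.107 and 0.0647). The remaining called outputs, named after their values were seen, were Nampt, which makes a precursor of NAD and fell by 0.41 in MI+FG-3149 (adjusted p = 0.0486), and in MI+IgG Alas1, the first enzyme of heme synthesis, which fell by 0.33 (adjusted p = 0.0307), and Fmo2, which rose by 1.08 (adjusted p = 0.0341). Leaving out single libraries ended each of these 3 calls, with adjusted p up to 0.136, 0.148 and 0.107; each of the 3 Sham libraries did so for Nampt and Fmo2, and Sham libraries 1 and 3 for Alas1.

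Hlf, the third D-box activator, had 27.9, 28.0, 22.9, 48.8 and 51.9 CPM in MI+FG-3149, 30.8, 20.1, 39.4, 47.2 and 45.2 CPM in MI+IgG, and 22.3, 28.5 and 22.0 CPM in Sham. MI+FG-3149 libraries 1 to 3 and MI+IgG libraries 1 and 2 lay near Sham, which those of Dbp did not, and the log2 fold changes of 0.56 (SE 0.35, edgeR adjusted p = 0.255) and 0.58 (SE 0.34, adjusted p = 0.221) did not pass. Wee1, a mitotic kinase gene driven through E-boxes, was alike, with log2 fold changes of 0.63 (SE 0.38, adjusted p = 0.247) and 0.74 (SE 0.38, adjusted p = 0.157). Por, which encodes the electron donor of cytochrome P450 enzymes, had 0.18 (SE 0.14, adjusted p = 0.364) and 0.20 (SE 0.14, adjusted p = 0.304). For Hlf, Wee1, Usp2, Tspan4 and Por the 5 highest infarcted libraries were the 5 lowest for Arntl, as they were for Tcap and Fmo2. Leo1 had the same 5 libraries lowest. Not all outputs took such an order. Those 5 libraries were split between the lowest 5 and the highest 5 places for Klf9, Alas1, Mtss1 and Nampt. Zbtb16, outside the clock lists, also had the same 5 highest. How many of all genes take this order was not counted.

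**Figure D4:**
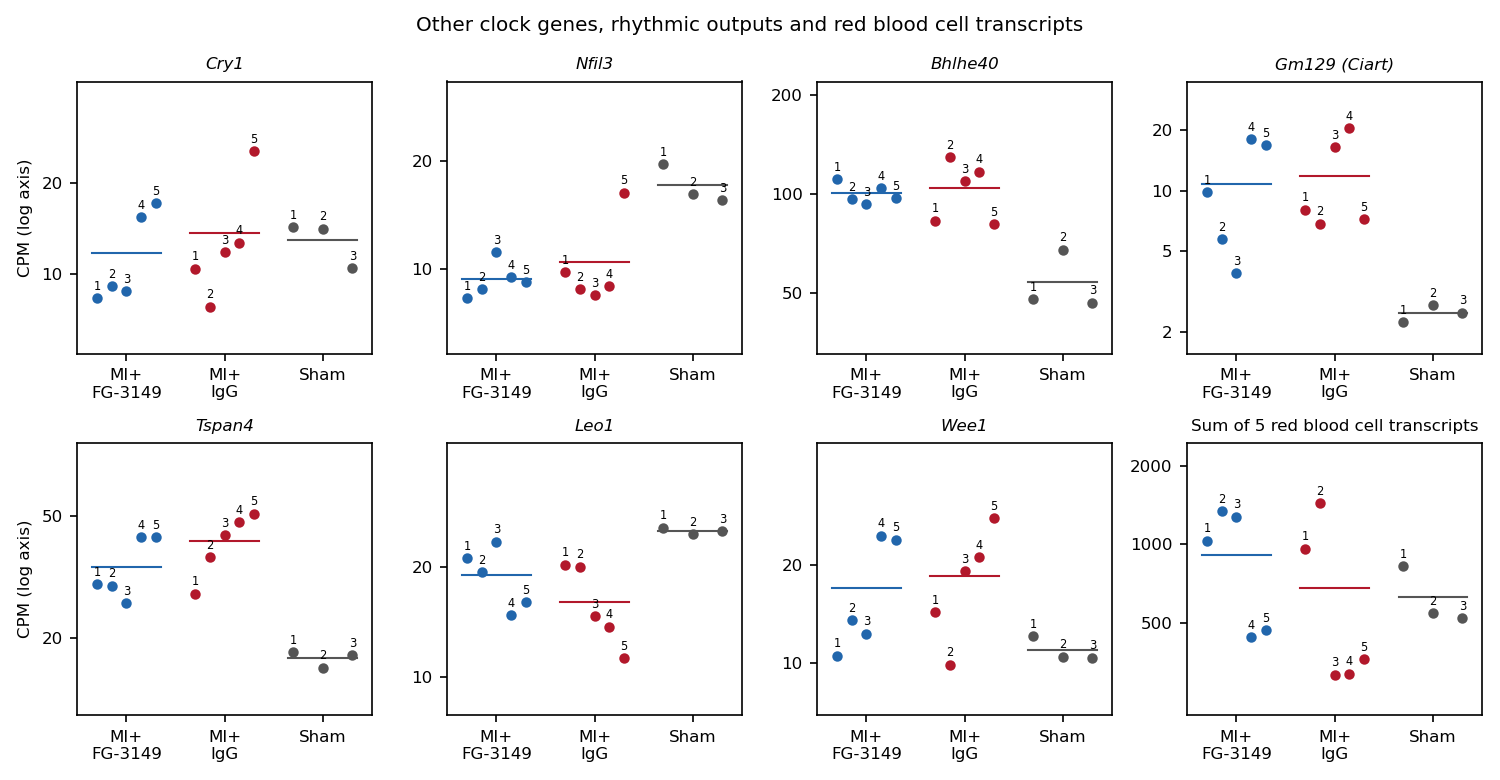
CPM (log axis) of 7 other clock genes and outputs and of the summed red blood cell transcripts in each library, with replicate numbers and group means. MI+FG-3149 libraries 4 and 5 and MI+IgG libraries 3 to 5 are high for Cry1, Tspan4 and Wee1 and low for Leo1 and the red blood cell sum.

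Glucocorticoids and body temperature also vary over the day and act on clock genes. Of 15 glucocorticoid-induced genes, 6 rose, 1 fell and 8 did not pass in MI+FG-3149 against Sham, and 8 rose, 1 fell and 6 did not pass in MI+IgG against Sham, with median log2 fold changes of 0.37 and 0.54, where 29.5% and 33.7% of all genes were called. Cebpd and Gadd45g rose in both, by 1.71 and 0.87 in MI+FG-3149 (edgeR adjusted p = 1.17e-05 and 0.000114) and by 1.38 and 0.96 in MI+IgG (adjusted p = 3.9e-05 and 2.02e-05) on the log2 scale. Fkbp5, a cochaperone of the glucocorticoid receptor, rose 1.67-fold in MI+FG-3149 (log2 0.74 ± 0.19 SE, edgeR adjusted p = 0.00936) and 2.51-fold in MI+IgG (log2 1.33 ± 0.18 SE, adjusted p = 9.46e-05). Tsc22d3 (GILZ) had a log2 fold change of 0.24 (SE 0.15, edgeR adjusted p = 0.273) in MI+FG-3149 and rose by 0.52 in MI+IgG (SE 0.15, adjusted p = 0.0221), a call that ended without Sham library 1 (adjusted p = 0.0975). Angptl4 fell by 1.10 on the log2 scale in MI+FG-3149 (SE 0.25, edgeR adjusted p = 0.00437) and by 1.03 in MI+IgG (SE 0.24, adjusted p = 0.00449). Mt2, a metallothionein, rose by 1.40 on the log2 scale in MI+FG-3149 (SE 0.47, edgeR adjusted p = 0.0438) and by 2.33 in MI+IgG (SE 0.44, adjusted p = 0.00214), and the MI+FG-3149 call ended without any 1 Sham library (adjusted p = 0.123, 0.108 and 0.1), without MI+FG-3149 library 1, 2 or 4 (0.0632, 0.0632 and 0.0628) and without MI+IgG library 2 or 4 (0.057 and 0.0575).

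Of 12 genes that follow temperature, 3 rose, 1 fell and 8 did not pass in MI+FG-3149, and 3 rose, 0 fell and 9 did not pass in MI+IgG, with median log2 fold changes of 0.08 and 0.04. With 29.5% and 33.7% of all genes called, these counts were near the share over all genes. Cirbp, the cold-inducible RNA-binding protein, had log2 fold changes of 0.07 (SE 0.13, edgeR adjusted p = 0.738) and -0.03 (SE 0.13, adjusted p = 0.878). Its relative Rbm3 rose by 0.29 on the log2 scale in MI+FG-3149 (SE 0.08, edgeR adjusted p = 0.0103) and by 0.36 in MI+IgG (SE 0.08, adjusted p = 0.00164), and the first call ended without Sham library 2 or 3 (adjusted p = 0.0796 and 0.0625). The heat shock gene Hspa4l rose by 0.38 and 0.40 (SE 0.06 each, edgeR adjusted p = 0.000289 in MI+FG-3149 and 0.000111 in MI+IgG). Of the chaperone genes, Hsph1 rose by 0.30 in MI+FG-3149 (SE 0.11, edgeR adjusted p = 0.0408; 0.0506 to 0.122 in 12 alternatives that ended the call, each Sham library left out among them), and Chordc1 fell by 0.26 (SE 0.08, adjusted p = 0.0234; 0.0558, 0.0976 and 0.0525 without Sham library 1, 2 and 3, and 0.0553 without MI+FG-3149 library 2). Hsp90aa1 rose by 0.42 in MI+IgG (SE 0.11, adjusted p = 0.0104), a call that ended without Sham library 1 (adjusted p = 0.0549), with 0.30 (SE 0.11, adjusted p = 0.0574) in MI+FG-3149. For both lists together the count called in MI+FG-3149 was 11, and 7 and 6 without Sham library 2 and 3.

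Between MI+FG-3149 and MI+IgG, edgeR called 0 of 18 other loop genes, 0 of 24 outputs, 0 of 15 glucocorticoid-induced genes and 0 of 12 temperature genes, where 1.07% of all genes were called. An unadjusted p under 0.05 was found for 2, 0, 4 and 0 of them. DESeq2 called 0, 0, 2 and 0, and limma voom called none. The 2 under DESeq2 were Fkbp5 (log2 fold change -0.59, adjusted p = 0.00684, against 0.081 in edgeR) and Cebpb (0.76, adjusted p = 0.00435, against 0.0888 in edgeR).

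Tef has 2 transcripts in the files that differ in their start, and their shares are a measure apart from the gene's level. NM_153484 begins with an exon at chr15:81802673-81802886 and NM_017376 with one at chr15:81811414-81811720 (mm10, plus strand), the starts whose E-box windows are printed above. The authors' estimates gave NM_153484 52.2, 49.4, 47.0, 42.4 and 45.5% of Tef in MI+FG-3149, 73.7, 70.3, 73.8, 69.3 and 81.0% in MI+IgG, and 65.4, 70.5 and 64.0% in Sham. All MI+FG-3149 libraries were below all others. The difference of MI+FG-3149 from MI+IgG was -26.3 percentage points (47.3 ± 3.75 against 73.6 ± 4.6%, SD, n = 5 each; two-sided exact permutation p = 0.00794, the smallest that 252 groupings can give, 0.0238 adjusted over 3 comparisons). The difference of MI+FG-3149 from Sham was -19.3 points (exact p = 0.0357, the smallest of 56 groupings, 0.0536 adjusted). The difference of MI+IgG from Sham was 7.03 points (exact p = 0.107).

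This share was looked at after its values were seen. The exact p-values given for it therefore only describe how these libraries separate, and no conclusion is drawn from them. The adjustment covers only the 3 comparisons of this share. Shares with no overlap between groups were common. Of 3952 transcript shares, 8.68% did not overlap between MI+FG-3149 and MI+IgG, 22.4% between MI+FG-3149 and Sham, and 9.97% between MI+IgG and Sham. Reads on the first exons alone, which tell the transcripts apart, were few. They numbered 3.81 to 6.76 for NM_153484 and 19.9 to 43.6 for NM_017376 in MI+FG-3149, 2.94 to 16.5 and 9.44 to 24.8 in MI+IgG, and 1.43 to 5.37 and 4.99 to 9.3 in Sham. They gave NM_153484 8.69 to 25.0% in MI+FG-3149, 23.7 to 63.0% in MI+IgG and 22.3 to 36.6% in Sham, with a difference of -21.6 points between the antibody groups (exact permutation p = 0.0159). These shares were below the deposited ones in every library. The measures differ on which transcript is the more common in all Sham libraries, in MI+IgG libraries 1 to 4 and in MI+FG-3149 library 1. The first-exon counts were not scaled for exon length (214 bases for NM_153484 and 307 for NM_017376). Arntl and Per1 also have 2 transcripts each. The main Arntl transcript NM_007489 held 96.7 to 99.6% in MI+FG-3149, 85.5 to 99.1% in MI+IgG and 94.8 to 97.9% in Sham, and the Per1 transcript NM_011065 held 39.1 to 67.3%, 31.0 to 50.1% and 49.9 to 50.2%, with overlap between MI+FG-3149 and MI+IgG for both.

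**Figure D5:**
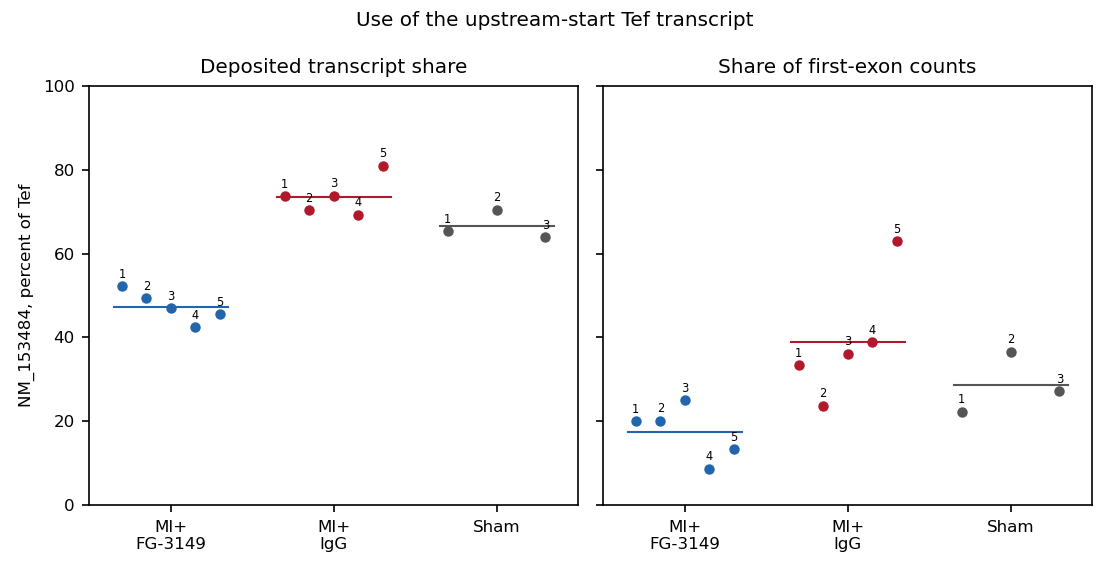
Share of Tef given to NM_153484, in percent, from the deposited transcript estimates (left) and from first-exon counts alone (right), by library with replicate numbers and group means. On the left MI+FG-3149 spans 42.4 to 52.2%, below the 64.0 to 81.0% of the other libraries, and on the right the groups meet.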

How the data were processed

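RNA was sequenced from 13 heart libraries. Per the labels' protocols, each library was made from 500 ng RNA with a kit that keeps strand, and all were read on 1 flow cell as single 75-base reads. The build was mm10, per the submitters' processing notes. The deposited table holds unnormalized estimated counts of genes and exons and each transcript's share of its gene, and a second deposited table holds RPKM of transcripts. The aligner and the counting tool are not given in the sources used here, nor is the strand setting, so overlapping and antisense genes are uncertain. Nothing says that replicates are separate animals beyond the design text, and p-values measure the spread between these libraries.

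Of 36172 gene entries, 379 that repeated a symbol were left out, and 79.4% of the values were whole within 0.01. Estimated counts were rounded, filtered with filterByExpr, scaled by TMM and fitted over all 13 libraries with edgeR 4.0.16 in R 4.3.3 (quasi-likelihood, robust, Benjamini-Hochberg over 13434 genes); the standard error is the log2 fold change divided by the root of the F statistic. CPM use TMM factors, likeness uses log2 CPM with a prior count of 2 centred per group over genes whose mean on that scale reached 1, and RPKM of a gene sums its transcripts. Transcript shares were compared for genes with a mean count of at least 100 and a mean share of 10 to 90%. The edgeR step was tested on simulated data. Alternatives were DESeq2 1.42.0, limma 3.58.1 (voom, and log2(RPKM + 1) or log2(RPKM + 0.1) of the most abundant transcript), other size factors and filters, only the 2 groups compared, a replicate block and each library left out.

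The genes and lists were chosen with earlier results of these data known. Named beside the 10 genes are a fixed set of clock, glucocorticoid and temperature genes, up to 4 called genes of each list with the smallest p in each contrast, and the 6 genes most and least like Arntl and Dbp; 4 called genes outside this rule are marked as such, and some genes of the lists are counted but not reported here by name. Gm129 was matched as Ciart by Entrez number. Promoter sequences are from RefSeq (GRCm38.p6). No variable of sampling hour was modelled.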

Additional observations from a re-analysis of the deposited data

Results flagged for a closer look

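In 96 groups of 5 libraries, 1 library stood far from the other 4 in 4 of them, and chance gives about 1 in 20. Nr1d1 had 165 CPM in MI+FG-3149 library 3, against 134 to 139 in the other 4. Cry1 had 25.4 CPM in MI+IgG library 5, against 7.77 to 12.7 in the other 4. In the same library, Nfil3 had 16.3 CPM, against 8.43 to 9.80 in the other 4. Mt2, a metallothionein, had 15.1 CPM in MI+FG-3149 library 4, against 5.69 to 8.04 in the other 4. Thus 2 of the 4 fall on MI+IgG library 5, which also had the lowest Nr1d1 and the highest Per2 of all 13 libraries.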

How the results depend on the processing

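No called log2 fold change of the 10 clock genes reversed in 660 recomputed values, and 9 values moved by more than the replicate SD. For Tef, RPKM of NM_153484 alone gave -0.82 for MI+FG-3149 over MI+IgG and 0.42 for MI+FG-3149 over Sham. Of 2370 values of the other named genes no called one reversed, 61 that were called in neither fit changed sign, 108 lost and 32 gained a call; 14 uncalled values of the clock genes changed sign. Over all genes tested, replicate numbers did not pair the libraries. Deviations of same-numbered MI+FG-3149 and MI+IgG libraries correlated from -0.023 to 0.178, and 2 of 5 matched best with their own number. For Arntl the replicate numbers lined up in part. Libraries 1 and 2 were higher than 4 and 5 in both infarcted groups, but library 3 had 18.5 CPM in MI+FG-3149 and 4.82 in MI+IgG. With the number as a replicate block, genes called were 3576 in MI+FG-3149 against Sham, 4139 in MI+IgG against Sham and 215 between the antibody groups, 5, 7 and 0 of the 10 clock genes were called, and 2 glucocorticoid and temperature genes were called between the antibody groups. Genes called between MI+FG-3149 and MI+IgG numbered 144 (123 higher, 21 lower), 278 with DESeq2 (220 higher, 58 lower), 83 with only these groups fitted and 232 on log2(RPKM + 1) (112 higher, 120 lower), where 1 other loop gene was called, as on log2(RPKM + 0.1); DESeq2 called 2 glucocorticoid and temperature genes. With no filter on low counts, 3 clock genes and 3 outputs were called in MI+FG-3149 against Sham. On log2(RPKM + 1), 2 of the 10 genes passed the 90th percentile of spread in Sham. Over all genes, leaving out each library gave 2641 to 4088 called in MI+FG-3149 against Sham and 3329 to 4808 in MI+IgG against Sham. Leaving out each library gave, in MI+FG-3149 against Sham, 1 to 6 clock genes, 5 to 10 other loop genes, 3 to 5 outputs and 6 to 12 glucocorticoid and temperature genes; in MI+IgG against Sham, 2 to 9 clock genes, 5 to 9 other loop genes, 4 to 9 outputs and 9 to 13 glucocorticoid and temperature genes; and between the antibody groups 68 genes (without MI+IgG library 2) to 271 (without MI+IgG library 1), and 94, 90, 76, 74 and 84 without Sham library 1, MI+IgG library 5 and MI+FG-3149 libraries 3, 4 and 5, with 0 to 1 other loop genes and 0 to 1 glucocorticoid and temperature genes. The Tef share difference ran from -27.6 to -24.5 points with each library left out, and was -26.2 from RPKM and -21.6 from the first exons alone; these 3 alternatives were chosen after seeing the data. The cause of these shifts was not tested, except that the RPKM fits used 1 transcript a gene. Depth limits Npas2 and Arntl among the clock genes, Fbxl21 at 0.159 to 1.38 CPM, and the first-exon counts of Tef.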
